A study of Mus musculus with 2 samples.

Results

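The cells described here are 175 natural killer (NK) lineage cells that carried a transcript of Il7r or Cd200r1, found among 21021 kept cells of 2 single-cell RNA libraries from mouse tumours. NK-lineage cells were gated by at least 1 unique molecular identifier (UMI, 1 counted RNA molecule) of Ncr1 or Klrb1c and none of Cd3d, Cd3e, Cd3g or Cd8b1. Members of the set also had at least 1 UMI of Il7r or Cd200r1. The members were thus chosen by measured UMI counts of Ncr1, Klrb1c, the Cd3 chains, Cd8b1, Il7r and Cd200r1, and the levels of these 8 genes in the members are given as a description without a test. Of the 175 members, 116 came from the library labelled WT, the other 59 from the one labelled Dapl1-KO. The same gate left 722 other NK cells without Il7r or Cd200r1 (280 and 442).

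Each genotype was represented by 1 library of immune cells sorted from tumour as positive for CD45, which marks leukocytes, and CD90.2, a surface protein of T cells and many innate lymphocytes. Both libraries came from the C57BL/6 strain, and the genotypes were WT and Dapl1-KO. The labels give no tumour model, age, number of animals or description of the Dapl1 deletion. The series was designed to compare wild-type with Dapl1-deficient T cells in tumours, so the NK-lineage cells are not its stated subject, and a CD90.2 gate samples only the NK-lineage cells that carry that protein.

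Dapl1, the targeted gene (GRCm38 chr2:59484653-59505020), had 4081 UMIs in kept cells of the library labelled WT, against 4154 in kept cells of the one labelled Dapl1-KO. The targeted transcript thus did not separate the libraries. The assay reads the 3′ end of a transcript, and whether those reads lie outside the deleted part is not stated in the sources used here. Directions below are between libraries as labelled. In the members themselves Dapl1 had 1 UMI in WT-labelled cells against 0, so no comparison of it was possible there.

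NK cells and type 1 innate lymphoid cells (ILC1) are related lymphocytes without an antigen receptor that share Ncr1 (NKp46) and Klrb1c (NK1.1). Conventional NK cells circulate, depend on the transcription factor Eomes, carry Ly49 receptors for MHC class I and store perforin and granzymes. ILC1 are mostly resident in tissue, and in mice the interleukin-7 receptor chain Il7r and the inhibitory receptor Cd200r1 are among the markers used to tell them from NK cells. Activated NK cells in tumours can take on ILC1 features, and Il7r is also carried by ILC2, ILC3 and T cells, so the name ILC1-like was checked against the markers of these cells.

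The upstream windows of 3 genes that were lower in the members are shown as examples. They are Klra4 and Klra8, which encode Ly49 receptors, and Gzma, which encodes the protease granzyme A. Sequences are from RefSeq on GRCm38.p6, the 250 bases before the annotated start of each gene, written 5′ to 3′ on the gene's own (minus) strand. In the Klra4 and Klra8 windows the capitals mark the 37 bases that differ between them when Klra8 is set 1 base further along. In the Gzma window they mark ACACCT, the half-site letters of T-box factors such as Eomes and T-bet read on the other strand as AGGTGT.
Klra4 (chr6:130067272-130067521): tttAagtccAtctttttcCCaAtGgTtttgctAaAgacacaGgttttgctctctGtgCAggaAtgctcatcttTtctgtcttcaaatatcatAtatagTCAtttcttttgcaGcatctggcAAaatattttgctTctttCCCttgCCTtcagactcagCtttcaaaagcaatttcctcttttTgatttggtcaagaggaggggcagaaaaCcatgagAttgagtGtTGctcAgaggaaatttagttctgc
Klra8 (chr6:130129899-130130148): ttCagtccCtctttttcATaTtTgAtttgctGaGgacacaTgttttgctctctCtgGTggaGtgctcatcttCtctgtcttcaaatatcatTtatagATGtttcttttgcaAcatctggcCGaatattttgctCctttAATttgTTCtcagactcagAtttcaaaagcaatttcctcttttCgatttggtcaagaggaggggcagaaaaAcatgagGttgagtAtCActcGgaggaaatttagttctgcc
Gzma (chr13:113100982-113101231): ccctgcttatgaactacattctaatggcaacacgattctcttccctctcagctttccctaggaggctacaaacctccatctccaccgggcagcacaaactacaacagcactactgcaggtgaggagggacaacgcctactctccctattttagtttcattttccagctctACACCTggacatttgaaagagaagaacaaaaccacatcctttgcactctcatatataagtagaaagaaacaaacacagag
All 7 genes looked up had a window in the table. The Klra4 and Klra8 windows were the same at 212 of 249 aligned positions (85.1%), the closest of the 15 pairs of Ly49 windows compared, of which the next closest pair reached 67.0%. The windows lie before the start of each gene, so their likeness does not show how alike the transcripts are. Whether reads were split between Ly49 genes was not tested, so single Ly49 values should be read with caution. On either strand the T-box half-site was present in the Gzma window and in 0 of the 6 Ly49 windows, against 3887 of 32851 windows of all genes (11.8%). A match describes letters only.

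The 2 libraries held 16673 and 19662 barcodes with 154408101 and 206322042 UMIs. They shared 13132 barcodes, and a shared barcode was kept only in a library where it had at least 2-fold the UMIs of its other copy, which removed 36.0% and 36.4% of barcodes. Cells with under 500 genes or over 10% mitochondrial UMIs were also removed, which left 9865 and 11156 cells. Member cells had a median of 5627.5 UMIs if labelled WT and 6348 if labelled Dapl1-KO, close to the 6239.5 and 6576.5 of the other NK cells. No replicate library exists for either genotype, and intervals below are 95% and cover counting error only.

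Members made up a larger share of gated NK cells in the library labelled WT. Of its NK cells, 116 of 396 were members, a share of 29.29% (exact Clopper-Pearson interval 24.85 to 34.04). The library labelled Dapl1-KO had 59 of 501, a share of 11.78% (9.087 to 14.93). The difference was -17.52 percentage points (Newcombe interval -22.83 to -12.23). After each cell was thinned to 3000 UMIs the shares were 22.34% and 7.875%, a difference of -14.46 points, with intervals that do not overlap (18.27 to 26.83 and 5.758 to 10.46). The gates were applied again to the thinned counts, so a cell that lost its Cd3 or Cd8b1 UMIs could enter. That gave 86 and 43 members and 299 and 503 other NK cells, the latter 280 and 442 before. Gene tests given below as after thinning use these cells, while detection shares at 3000 UMIs use the cells as first gated. Keeping every shared barcode narrowed it to -10.57 points (-15.39 to -5.9), with 120 of 462 and 118 of 766 cells, the smallest difference of the 8 versions computed.

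**Figure D1:**
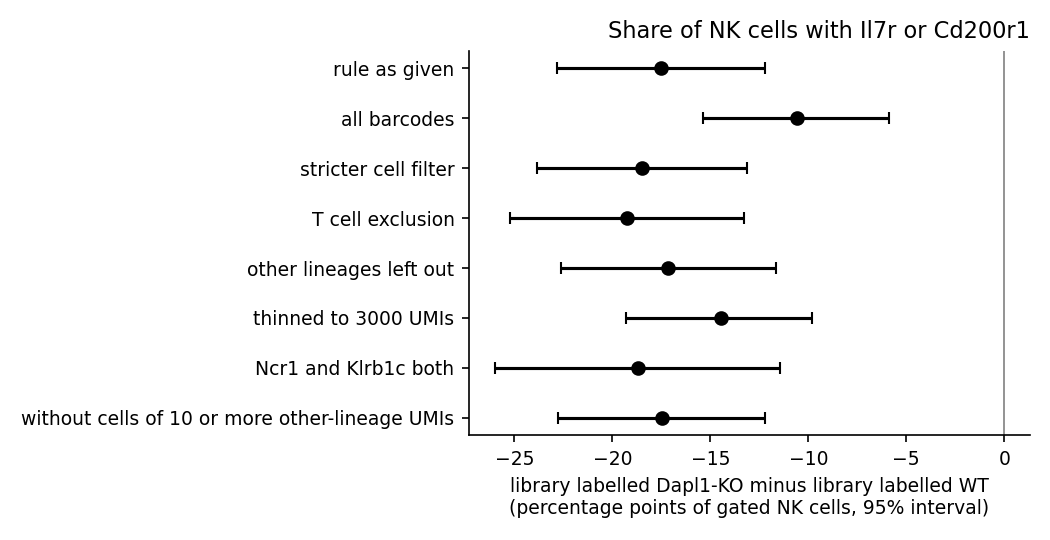
Difference between the 2 libraries in the share of gated NK cells with Il7r or Cd200r1, in percentage points on the horizontal axis, under the rule and 7 alternatives on the vertical axis; points are differences and bars are 95% intervals of counting error. Every interval lies below 0, and the version that keeps all barcodes lies nearest to it.

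Detection of Il7r differed between the libraries in T cells too. Among CD4 T cells, at median depths of 6434 and 6504 UMIs, 76.6% (73.8 to 79.2) carried an Il7r UMI if labelled WT and 61.6% (58.6 to 64.5) if labelled Dapl1-KO. Among CD8 T cells it was 52.2% and 36.5%. In cells with myeloid markers the shares were 60% of 30 and 42.9% of 70. Cells of B cell, tumour or stroma markers, which should lack Il7r, numbered only 5 and 2, none of them with Il7r, so the level given by free RNA could not be measured, and its part in the gate was not tested. The share of NK cells with Il7r or Cd200r1 lay below that of CD4 T cells (79.5% and 66.5%) and CD8 T cells (61.0% and 47.8%) in both libraries. Over all kept cells the members were 1.176% and 0.5289%.

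Most members entered through Il7r. In the library labelled WT 100 members had Il7r alone, 7 had Cd200r1 alone and 9 had both. In the library labelled Dapl1-KO the numbers were 44, 10 and 5. Single molecules decided many memberships: 47 of 116 and 32 of 59 members had exactly 1 UMI of the 2 genes together. The highest count in a cell was 18 and 7 for Il7r, and 3 in each library for Cd200r1. Ncr1 and Klrb1c were both present in 68 and 38 members, Klrb1c alone in 38 and 17, and Ncr1 alone in 10 and 4. Summed over members, Ncr1 stood at 239.8 and 275.1 CPM (the UMIs of a gene per 1000000 UMIs of all cells in a class and library) and Klrb1c at 307.3 and 322.4, beside 187.5 and 220.6 and 327.6 and 330.2 in the other NK cells.

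Markers of other innate and T lineages were mixed in the members. The ILC2 genes Il1rl1, Il5, Il13, Il4, Il17rb, Ptgdr2 and Il9r and the ILC3 genes Il22, Il23r, Il17f and Ccr6 had 0 counts in members of both libraries. The summed level of the whole lists was not low, however. It was 308.5 and 410.5 CPM for 13 ILC2 genes, against 149.6 and 151.3 in other NK cells, and 526.2 and 503.0 for 12 ILC3 genes, against 300.2 and 250.4. Rora, Gata3 (66.4 and 86.0 CPM), Kit and Ltb, which ILC1 can also express, made up much of these sums. The 18 T lineage genes summed to 1498 and 1668 CPM in members, 1585 and 1561 in other NK cells and 2017 and 2037 in cells that carried Cd3, with Trbc1 at 465.7 and 588.9 and Cd28 at 97.8 and 126.8 in members. Trac, the constant segment of the T cell receptor alpha chain, was at 15.1 and 21.5 CPM in members, 21.9 and 27.3 in other NK cells and 128.9 and 131.7 in cells that carried Ncr1 or Klrb1c together with Cd3. Cd8a was seen in 8 members of each library and Cd4 in 1 and 2. Of the liver and gut residency genes used for ILC1 elsewhere, Itga1 had 7 and 8 counts, Zfp683 0 and 1, and Itgae 0 and 1. The name ILC1-like therefore does not rest on those 3. It rests on Il7r and Cd200r1, which set membership and so give no check of it, and on the genes tested next. The lists of the latter were chosen with earlier results of these data known.

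Compared with other NK cells, the members carried more RNA of genes linked to ILC1 and tissue residency and less of genes of conventional NK cells. The comparison used UMIs summed per library and class, fitted by edgeR's quasi-likelihood test with the library as a block and Benjamini-Hochberg adjustment over 9339 genes; the genes of the gate were not tested. At an adjusted p of 0.05 or less, 99 genes (1.06%) were higher in members and 67 (0.717%) were lower, and the median of all genes was -0.005 on the log2 scale. Of 18 ILC1 and residency genes tested, 9 were higher and 0 lower, with a median log2 difference of 0.735. Of 15 conventional NK genes 0 were higher and 5 lower, with a median of -0.765. Under several alternatives given below 1 of them, Ly6c2, was higher. Of 8 Ly49 genes 0 were higher and 6 lower, with a median of -2.133. The 2 libraries are the replicates, they differ in genotype label, and each gene has 2 residual degrees of freedom. The fit draws each gene's spread toward a trend shared by all genes tested, so small p-values do not measure that gene's library-to-library spread alone.

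Tmem176b and Tmem176a, a pair of neighbouring genes for membrane channel proteins, showed the clearest rise. Tmem176b stood at 194.4 CPM in WT-labelled and 204.2 in Dapl1-KO-labelled members, against 29.4 and 14.4 in other NK cells, and its log2 difference was 3.13 ± 0.22 (SE; edgeR adjusted p = 1.16e-07). Tmem176a stood at 136.2 and 141.9 CPM against 22.9 and 11.7 (2.95, edgeR adjusted p = 2.25e-07). Both members' values lay far above both values of the other NK cells, and the rise came from many cells. Tmem176b was detected in 46.6% and 40.7% of members and in 10.4% and 5.43% of other NK cells. At 3000 UMIs per cell these shares were 35.4% and 35.1% against 6.06% and 3.0%. In CD4 T cells, at median depths of 6516 and 6576 UMIs, 11.5% and 7.24% had a Tmem176b UMI, and in the deeper CD8 T cells (10991 and 13491.5) 6.25% and 4.13%.

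Rora, a nuclear receptor needed for ILC2 development and also present in ILC1, was at 228.2 and 281.6 CPM in members and at 68.8 and 51.9 in other NK cells (log2 difference 2.0, edgeR adjusted p = 2.61e-07). It was detected in 56.0% and 52.5% of members, and in 63.5% and 70.7% of CD4 T cells. Its levels in members of the 2 libraries differed little beside the 4.0-fold gap to other NK cells. Krt83, which encodes a hair keratin, was at 149.0 and 161.2 CPM against 28.4 and 33.5 (2.26, edgeR adjusted p = 2.09e-07). Ckb, brain-type creatine kinase, was at 74.5 and 53.7 CPM against 14.0 and 7.67 (2.59, edgeR adjusted p = 2.28e-05). For all 3 genes the lowest member value lay above the highest value of other NK cells.

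The other ILC1 and residency genes that were higher encode receptors and signalling proteins. Gpr183, an oxysterol receptor that guides lymphocyte position, was at 180.4 and 152.6 CPM against 54.9 and 45.4 (log2 difference 1.64). Inpp4b, a phosphoinositide phosphatase, was at 48.9 and 32.2 against 10.97 and 8.29 (1.93). The chemokine receptor Cxcr6, a marker of tissue-resident lymphocytes, was low in both classes, at 20.95 and 21.5 against 7.48 and 3.38 (1.91). Gpr183 was detected in 48.3% and 50.8% of members and in 44.4% and 49.8% of CD4 T cells. Cxcr6 was detected in 12.9% and 11.9% of members and in 53.1% and 69.5% of the deeper CD8 T cells. Cxcr3, the receptor for interferon-induced chemokines, rose by 1.10, the death ligand Tnfsf10 (TRAIL) by 1.58 and the lymphotoxin gene Ltb by 0.81 on the log2 scale. Their edgeR adjusted p-values lay between 1.9e-06 for Gpr183 and 0.0356 for Cxcr3. The list count fell from 9 to 6 under DESeq2 and to 7 after thinning, with 0 lower in each case. DESeq2 lost Cxcr6, Cxcr3 and Tnfsf10 (adjusted p = 0.069, 0.259 and 0.133). Thinning lost Inpp4b, Cxcr6 and Tnfsf10 (edgeR adjusted p = 0.0596, 0.106 and 0.105), and Rgs1 entered the count. Cxcr3 and Tnfsf10 also lost their calls under the stricter T cell exclusion (edgeR adjusted p = 0.0615 and 0.12). The same held where both NK genes were required (0.496 and 0.125).

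**Figure D2:**
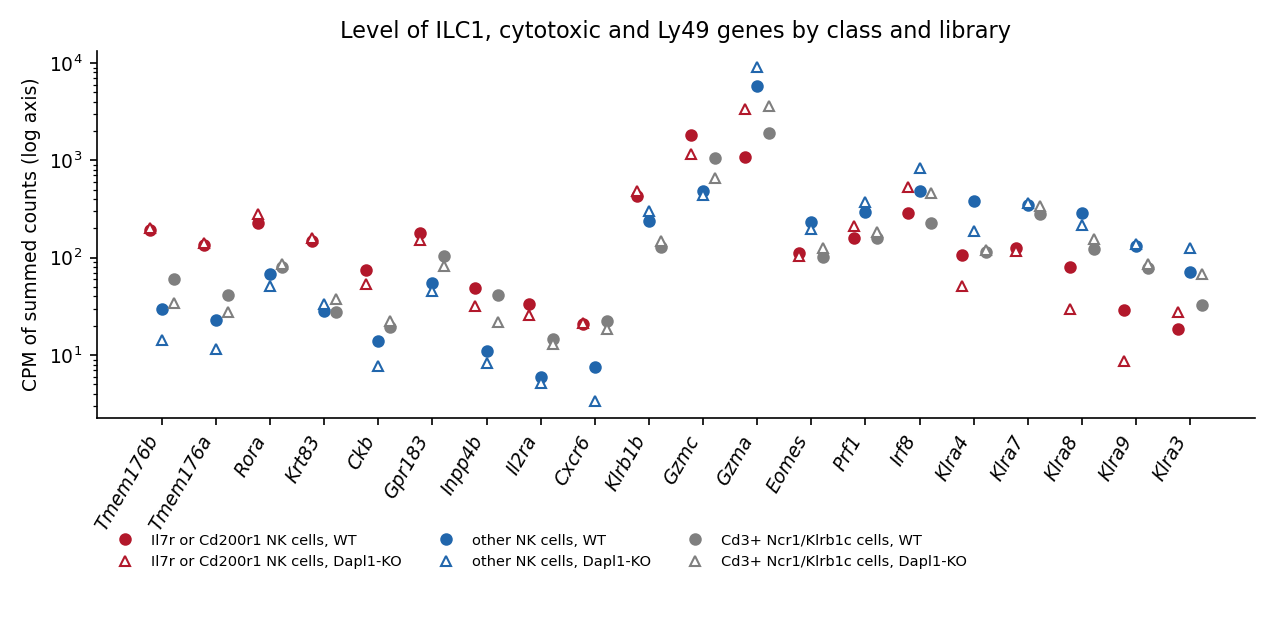
Level of 20 genes (horizontal axis) in CPM of summed counts on a log axis, with 1 point per class and library: circles for the library labelled WT, triangles for the library labelled Dapl1-KO, red for members, blue for other NK cells and grey for cells with Cd3 and Ncr1 or Klrb1c. Genes from Tmem176b to Klrb1b have both red points above both blue points, and genes from Eomes to Klra3 the reverse in each library; Tmem176b lies near 200 CPM in both member sums.

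Cytokine receptors and survival genes changed in few places. Il2ra, the high-affinity chain of the interleukin-2 receptor, was the single gene of 21 cytokine receptor and signalling genes that rose, at 33.8 and 25.8 CPM against 5.98 and 5.22 (log2 difference 2.33 ± 0.35, edgeR adjusted p = 0.00062, and 0.207 after thinning). Bcl2a1d and Bcl2a1b, near-identical copies of an anti-apoptotic gene between which reads can be split, rose among 10 survival genes (1.79 and 1.23), and 0 of the 10 fell. After thinning Bcl2a1b and Bcl2a1d were not called (edgeR adjusted p = 0.395 and 0.139), nor was Bcl2a1d under the stricter T cell exclusion (0.0686). Of 20 checkpoint and costimulatory genes 3 passed as higher (Cd226, Klrc1 and Tnfrsf4) and 0 as lower. Tnfrsf4 had 37 of its UMIs in 1 WT-labelled member and stood at 10.75 CPM in Dapl1-KO-labelled members against 11.66 in other NK cells. Cd226 lost its call after thinning (edgeR adjusted p = 0.199), and Klrc1 under the stricter T cell exclusion (0.0618). Tcrg-C4, a constant segment of the T cell receptor gamma chain that innate lymphocytes can transcribe without a receptor, was at 41.9 and 96.7 CPM against 9.97 and 6.14 (2.96, edgeR adjusted p = 6.65e-05). It was seen in 23 and 21 members, while Trdc, the delta chain segment, was at 18.6 and 17.2 CPM against 42.9 and 39.9 (log2 difference -1.21, edgeR adjusted p = 0.0405). The Trdc call was lost under 5 alternatives, with adjusted p from 0.0819 to 0.936, and Tcrg-C4 was called under every alternative run.

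Of 17 cytotoxic genes tested 4 were lower in members (Gzma, Prf1, Nkg7 and Fasl) and 2 higher (Gzmc and Tnfsf10), with a median log2 difference of -0.571. Fasl lost its call under DESeq2 (adjusted p = 0.0709) and after thinning (edgeR adjusted p = 0.699). Gzma was at 1075 CPM in WT-labelled and 3394 in Dapl1-KO-labelled members, against 5831 and 9016 in other NK cells, a log2 difference of -1.98 (edgeR adjusted p = 7.66e-08). Within each library the members lay below the other NK cells, and the 2 member values also lay below both values of the other NK cells. Gzma was seen in 34.5% and 59.3% of members and in 90.0% and 95.2% of other NK cells, and at 3000 UMIs in 28.3% and 50.9% against 88.6% and 93.3%. Prf1, which encodes perforin, was at 160.7 and 212.8 CPM against 292.2 and 373.5 and fell by 0.93 (edgeR adjusted p = 5.38e-05). Nkg7, a cytotoxic granule protein, fell by 0.79, and the chemokine Ccl5 by 1.02, from 7975 and 11135 CPM to 3746 and 6401.

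Eomes, which specifies conventional NK cells, was at 112.9 and 103.2 CPM in members and 232.4 and 195.8 in other NK cells, and fell by 1.05 on the log2 scale (edgeR adjusted p = 0.000597). The share of cells with an Eomes UMI was 34.5% and 39.0% in members and 68.6% and 63.1% in other NK cells (22.1% and 21.1% against 50% and 40.3% at 3000 UMIs), with 3.35% and 3.39% in CD4 T cells. Tbx21, which encodes T-bet, the factor shared by both lineages, stood at 51.2 and 45.1 CPM in members and 51.9 and 49.4 in other NK cells. Irf8, an interferon regulatory factor, fell by 0.77. Not every gene of conventional NK cells was lower: S1pr1, the exit receptor for circulation, was at 34.9 and 43.0 CPM against 36.9 and 43.3, Klf2 at 472.7 and 378.3 against 468.2 and 604.3, and Ly6c2 at 79.2 and 98.9 against 64.8 and 35.0 (log2 difference 0.74, edgeR adjusted p = 0.113). Ly6c2 was called higher with no low-count filter, all barcodes, the stricter T cell exclusion, thinning or the highest cell left out. It was also called higher without cells of 2 or more other-lineage UMIs and against other NK cells with a Ly49 UMI. Under these alternatives the conventional NK list thus held 1 gene higher. Its genes lower numbered from 4 after thinning to 9 with the highest cell left out. Klf2 was called lower with no low-count filter, where both NK genes were required, and with the highest cell left out. Of 29 transcription factors tested, Rora alone rose and Eomes, Irf8 and Nr4a2 fell. Nr4a2 lost its call under DESeq2 (adjusted p = 0.104) and after thinning (edgeR adjusted p = 0.484). It was also lost without cells of 2 or more other-lineage UMIs (edgeR adjusted p = 0.0579) and where both NK genes were required (0.0605).

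The Ly49 receptors had the lowest median difference of the lists tested, and they include the 2 whose upstream windows are printed above. Klra8 was at 80.3 and 30.1 CPM in members against 291.2 and 219.4 in other NK cells (log2 difference -2.15, edgeR adjusted p = 1.96e-05). Klra4 was at 107.1 and 51.6 against 380.0 and 188.1 (-1.83, edgeR adjusted p = 5.81e-05). Klra7 fell by 1.60, Klra3 by 2.12 and Klra9 by 2.73. Klra1 had 16 and 0 counts in members against 139 and 195 in other NK cells. A UMI of any Ly49 gene was present in 34.5% and 28.8% of members and in 80.0% and 77.1% of other NK cells. Under DESeq2 and after thinning 5 of the 8 genes were lower.

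Genes shared by NK cells and ILC1 went both ways: of 20 tested, Cd7, Klrb1b and Klrc1 rose and Fcer1g, Klrd1, Klre1, Nkg7 and Tyrobp fell. Klrb1b, an inhibitory receptor beside NK1.1 in the same gene cluster, was at 430.7 and 481.5 CPM against 240.3 and 299.5 (log2 difference 0.68, edgeR adjusted p = 0.000411). Thinning ended the calls of Klrb1b (0.62, edgeR adjusted p = 0.183), Cd7, Klrd1 and Fcer1g. Klrd1 was also lost under DESeq2, Fcer1g where both NK genes were required, and Cd7 under 3 further alternatives. Tyrobp and Fcer1g, the adaptors through which activating receptors signal, fell by 0.66 and 0.49. Of 17 proliferation genes, 16 stress genes and 12 glycolysis and hypoxia genes, 0 rose and 0 fell in each list by this test.

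**Figure D3:**
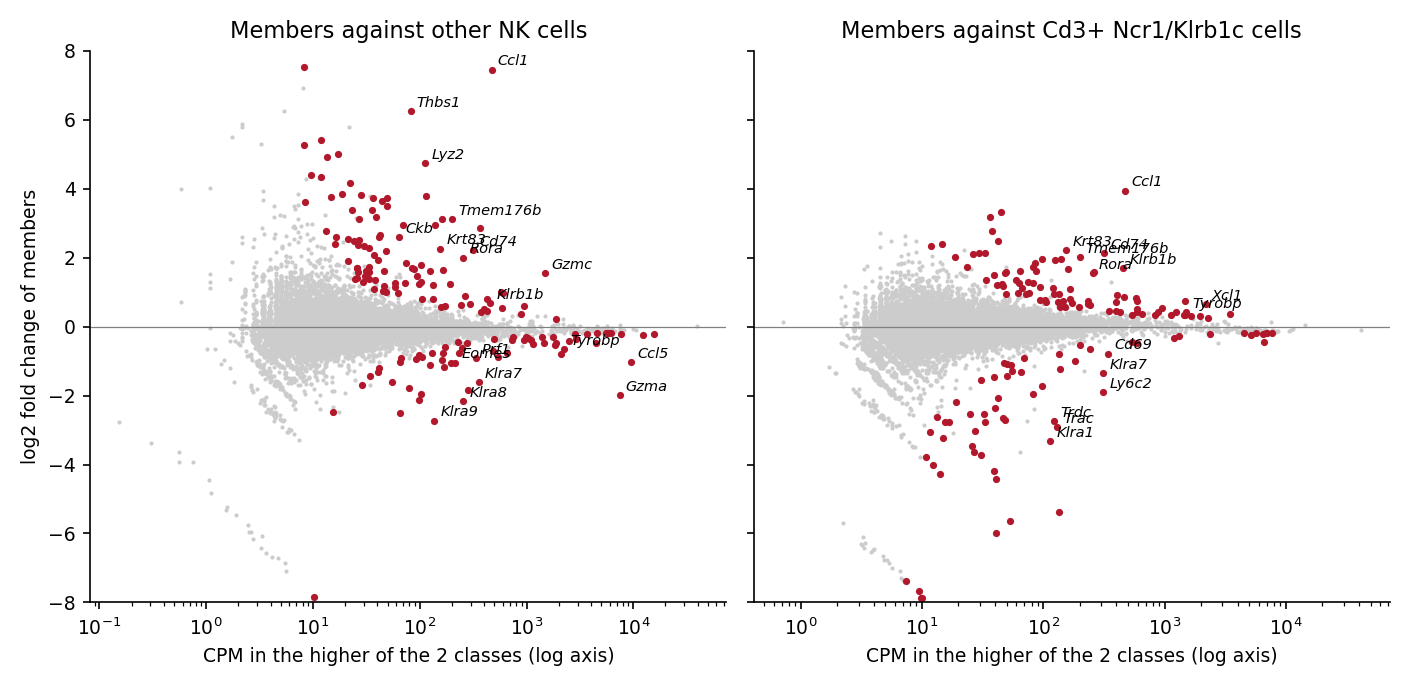
Log2 difference of the members (vertical axis) against the level in CPM of the higher class on a log axis, 1 point per gene tested, for other NK cells (left) and for cells with Cd3 and Ncr1 or Klrb1c (right); red points have an edgeR adjusted p of 0.05 or less. The left panel leaves out 1 gene and the right panel 3 beyond ±8; Tmem176b and Rora lie above 0 and Klra7 below 0 in both panels, and Ccl1 rests on 1 cell.

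Some of the largest differences rested on single cells. Ccl1 had 758 UMIs in members of the library labelled WT, 755 of them in 1 cell, and 27 in the other library, all in 1 cell. Thbs1, which encodes a matrix protein made by myeloid and other cells, was likewise confined to 1 member in each library, with 32 and 59 UMIs, and Lyz2, a lysozyme of macrophages and neutrophils, had 99 of its 101 UMIs in 1 member of the library labelled Dapl1-KO. The summed level of 15 myeloid marker genes was 44.2 and 457.8 CPM in members, 15.5 and 34.4 in other NK cells, and Adgre1, S100a8, S100a9, Flt3, Xcr1 and Siglech were at 0 in members of both libraries. Of 8 myeloid genes tested 4 were higher in members, and 0 after the highest cell of each gene was left out in each class and library. With the highest cells left out, 61 of the 99 higher genes and 49 of the 67 lower genes passed again, including all 9 residency, 5 conventional NK and 6 Ly49 genes.

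Cd74, the invariant chain of MHC class II, was at 289.9 and 343.9 CPM in members against 33.4 and 102.8 in other NK cells (log2 difference 2.22, edgeR adjusted p = 2.06e-06). It was found in 26 and 12 members, and its highest single cells held 95 and 53 of 249 and 160 UMIs. With the highest cells left out the difference was 3.57. The class II chains H2-Aa, H2-Eb1 and H2-Ab1, named after their values were seen, differed by 1.70, 1.66 and 1.25 in few cells. After thinning none of the 4 genes was called, with edgeR adjusted p of 0.105 for Cd74 and 0.208 to 0.769 for the chains. H2-Ab1 and H2-Eb1 were also lost under the stricter cell filter (0.135 and 0.291), and H2-Ab1 by DESeq2 (0.0703) and against other NK cells with a Ly49 UMI (0.104). The part of other cells' RNA in these values was not tested.

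Gzmc, a granzyme of activated and TGF-beta-exposed lymphocytes, was with Tnfsf10 one of the 2 cytotoxic genes that rose. It was at 1803 and 1154 CPM in members against 486.7 and 437.9 in other NK cells (log2 difference 1.56, edgeR adjusted p = 7.66e-08). The rise came from few cells with many molecules: 22 and 19 members had Gzmc, and 1 cell held 624 of 1549 UMIs with the WT label and 215 of 537 with the other. The share of cells with Gzmc was 19.0% and 32.2% in members and 25.0% and 18.3% in other NK cells (13.3% and 24.6% against 18.6% and 11.8% at 3000 UMIs), so the shares differed in opposite directions in the 2 libraries. Without cells of 2 or more other-lineage UMIs the difference was 0.95 (edgeR adjusted p = 0.0798), and after thinning it was 0.50 (0.624).

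The members were next set against 1233 cells (583 and 650) that had Ncr1 or Klrb1c together with a Cd3 chain and no Cd4, Cd8a or Cd8b1, a gate that takes in natural killer T and gamma delta T cells. In the same edgeR fit 86 of 9339 genes (0.921%) were higher in members and 67 (0.717%) were lower, and the median of all genes was 0.005. These counts share the members with the comparison above. Of 5 defining T cell genes tested 0 were higher and 4 lower, with a median of -2.78. Trac fell by 2.92 (edgeR adjusted p = 6.74e-07), Bcl11b, the T lineage commitment factor, by 2.53, and Cd5 and Cd6, both receptors of mature T cells, by 2.78 and 2.52. DESeq2 called 1 of the 5.

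Of 18 residency genes tested against these Cd3 cells 8 were higher in members and 1 lower. The number higher was 6 under DESeq2 and 4 after thinning. Tmem176a, Tmem176b, Ckb and Gpr183 were higher in members in both comparisons. Gpr183 was not called against Cd3 cells after thinning (log2 difference 0.28, edgeR adjusted p = 0.813). Cxcr6 (log2 difference -0.03), Cxcr3 (0.06), Inpp4b (0.32), Ltb (0.31) and Tnfsf10 (0.66), higher than in other NK cells, were not called here. Their edgeR adjusted p-values lay between 0.141 for Ltb and 0.992 for Cxcr6. Ltb was called with all barcodes kept and with the highest cell left out. Tmem176b stood at 61.1 and 34.6 CPM in the Cd3 cells and was higher in members by 2.02 on the log2 scale (edgeR adjusted p = 3.78e-06). Krt83 stood at 28.0 and 38.0 (2.22), Rora at 79.9 and 87.1 (1.55) and Klrb1b at 128.0 and 150.3 (1.69). Kit, the stem cell factor receptor, was at 53.6 and 96.7 CPM in members against 30.7 and 25.6 (1.29, edgeR adjusted p = 0.00709, and 0.2 after thinning), and the chemokine Xcl1, which attracts cross-presenting dendritic cells, was at 1842 and 2513 against 1031 and 1685 (0.66, edgeR adjusted p = 0.000791, and 0.164 after thinning). Cd69, an early activation and retention marker, was the gene that fell, from 369.9 and 310.1 CPM to 234.0 and 167.7 (-0.78, edgeR adjusted p = 0.00045). Against other NK cells Cd69 differed by 0.07 (edgeR adjusted p = 0.902).

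Of 20 genes shared by NK cells and ILC1, 7 were higher than in Cd3 cells and 0 lower, and 3 were higher under DESeq2 or after thinning. Tyrobp, whose values within each library lay between those of the 2 reference classes, was at 1231 and 1797 CPM in members, 1991 and 2457 in other NK cells and 893.2 and 1299 in Cd3 cells, higher by 0.43 than in the last (edgeR adjusted p = 0.000979). Of 8 Ly49 genes 0 were higher and 7 lower than in Cd3 cells, with Klra7 at 280.1 and 340.3 CPM there (log2 difference -1.35) and Klra1 at 110.1 and 118.8 (-3.31). DESeq2 called 4 of the 8 lower, and 3 were lower after thinning. Ly6c2, found on circulating and memory lymphocytes, fell by 1.91 and Trdc by 2.74. Tcrg-C1 (-2.18) and the transcription factor Id3 (-1.72) also passed, but after thinning they differed by -1.64 and -0.20 and were not called, and DESeq2 did not call Tcrg-C1 (adjusted p = 0.542). Eomes was at 100.9 and 126.4 CPM in Cd3 cells and differed by -0.10 (edgeR adjusted p = 0.914).

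The members were not uniform. Tmem176a or Tmem176b without Eomes was found in 51 of 116 WT-labelled members (44.0%) and 22 of 59 Dapl1-KO-labelled members (37.3%). Eomes without either Tmem176 gene was found in 31 (26.7%) and 17 (28.8%). Both were found in 9 (7.76%) and 6 (10.2%), and neither in 25 (21.6%) and 14 (23.7%). Any Ly49 gene together with a Tmem176 gene was found in 8 and 3 members. In other NK cells Tmem176 without Eomes was found in 6.43% and 3.85%. A transcript not seen in a cell may have been missed at this depth.

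Levels moved with the number of Il7r and Cd200r1 UMIs, the value that set membership, and are given without a test. In the library labelled WT, Tmem176b was at 29.4 CPM in NK cells with 0 such UMIs, 141.0 with 1 and 236.0 with 2 or more, and in the library labelled Dapl1-KO at 14.4, 151.0 and 270.7. Gzma went from 5831 to 1561 to 695.6 in the first library and from 9016 to 5388 to 903.8 in the second. Eomes went from 232.4 to 159.6 to 76.6 and from 195.8 to 131.6 to 67.7. The members just inside the limit, with 1 UMI, thus lay between the cells just outside it and those with more for these 3 genes. Krt83 did not follow that order in the library labelled WT (28.4, 162.3 and 138.7).

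**Figure D4:**
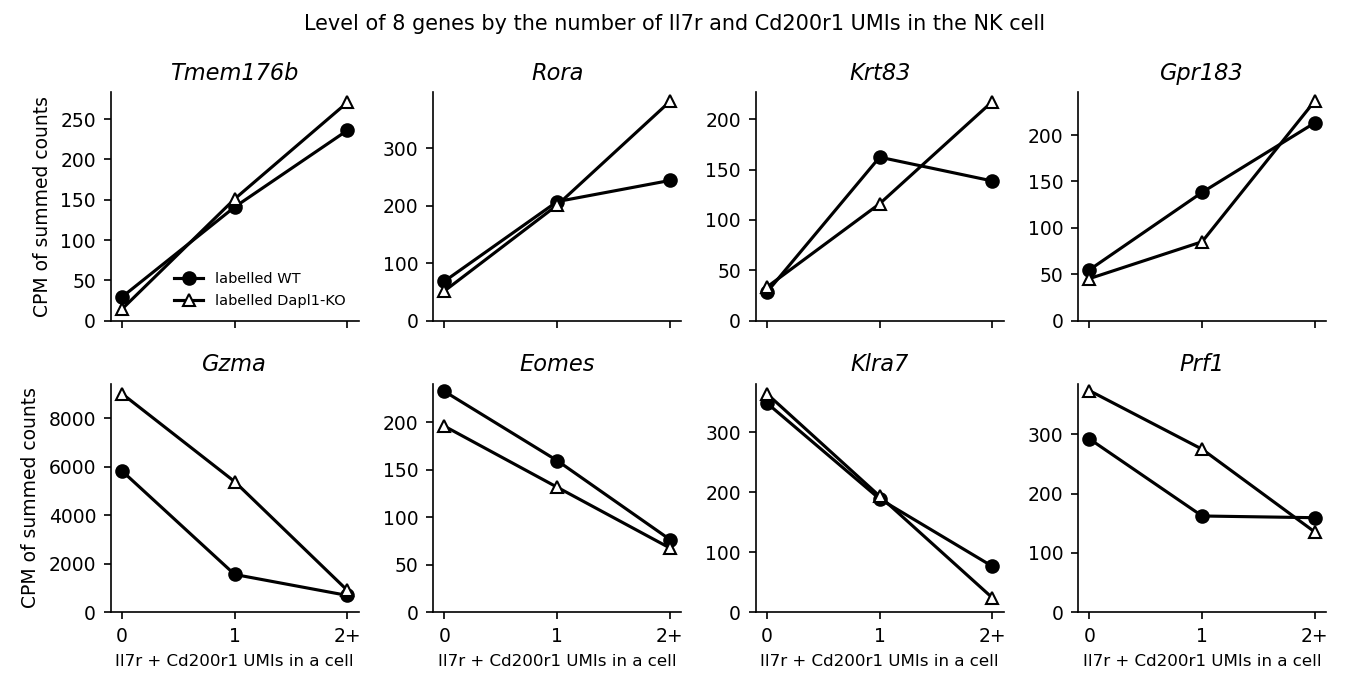
CPM of summed counts (vertical axes, from 0) of 8 genes by the number of Il7r and Cd200r1 UMIs in a gated NK cell (0, 1, or 2 and more); filled circles are the library labelled WT and open triangles the library labelled Dapl1-KO. Gzma, Eomes, Klra7 and Prf1 fall with that number in both libraries, and Tmem176b, Rora and Gpr183 rise; the middle class holds 47 and 32 cells.

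Members with Il7r alone (100 and 44) were compared with members with Cd200r1 alone (7 and 10). Of 2402 genes tested by edgeR's quasi-likelihood test, 6 (0.25%) were higher and 7 (0.291%) lower with Il7r alone, with 1 residual degree of freedom. Klf2, a factor of circulating and resting lymphocytes, was at 521.0 and 477.9 CPM with Il7r alone and 160.0 and 134.3 with Cd200r1 alone, 1.75 higher on the log2 scale (edgeR adjusted p = 0.00195). Ccl4, an inflammatory chemokine, was at 135.1 and 849.0 against 829.1 and 1455, but 119 of 130 UMIs in the last group were in 1 cell. With the highest cells left out 0 genes passed in either direction, and Klf2 kept a difference of 1.68 (edgeR adjusted p = 0.356). At an unadjusted p under 0.05 the test held 118 genes, and DESeq2 called 0 higher and 1 lower.

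The last comparison was between genotypes within the members, which has 1 library a side and therefore no test. Among 2440 genes that reached 50 CPM in either library, the library labelled Dapl1-KO had 276 (11.3%) at least 1.5-fold higher and 168 (6.89%) at least 1.5-fold lower, with a median log2 ratio of 0.088. In other NK cells, which were more numerous, the same genes gave 66 and 50. Of 116 members of the library labelled WT, 98 carried Xist or Tsix RNA, transcripts of female cells, and no Y-linked UMI, and 6 the reverse. In the library labelled Dapl1-KO 0 and 36 of 59 members did. The sex of the cells and the genotype label cannot be told apart.

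Gzma, Gzmb and Ccl4 were higher in members of the library labelled Dapl1-KO. Gzma was at 1075 and 3394 CPM, a log2 ratio of 1.66 (interval 1.54 to 1.78), beside 0.63 (0.60 to 0.66) in other NK cells. Of the 1579 Gzma UMIs in Dapl1-KO-labelled members, 1392 lay in the 32 members with 1 UMI of Il7r and Cd200r1, and such members were 47 of 116 with the WT label. Members with 2 or more such UMIs stood at 903.8 CPM with the Dapl1-KO label and 695.6 with the WT label, so the gap lay mainly in members at the limit of the gate. Gzmb, granzyme B, was at 308.5 and 1139 CPM (1.89, 1.67 to 2.10), beside 0.58 in other NK cells. Ccl4 was at 182.8 and 894.2 CPM (2.29, 2.02 to 2.57), beside 0.67. Of 9 cytokine and chemokine genes measured 4 were at least 1.5-fold higher and 2 lower, the latter Csf2 and Ccl1, and the interferon gamma gene Ifng went from 1.19 to -0.02 with the highest cells left out. Of 11 cytotoxic genes measured 4 were at least 1.5-fold higher and 1 lower, and the lower one was Gzmc (-0.64). Gzmc turned to 1.48 when cells with 2 or more other-lineage UMIs were left out and to 1.68 after thinning.

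Itgb2, the beta chain of LFA-1, was at 34.9 and 94.6 CPM (log2 ratio 1.44, interval 0.74 to 2.16), beside 0.90 in other NK cells, and its partner Itgal at 109.4 and 189.1 (0.35 to 1.22). Of 10 homing and adhesion genes 5 were at least 1.5-fold higher and 0 lower. Of 19 genes shared by NK cells and ILC1, 3 were higher and 0 lower, and of 3 Ly49 genes 0 were higher and 2 lower. The 2 were Klra8 (log2 ratio -1.42, interval -2.36 to -0.57) and Klra4 (-1.05, -1.77 to -0.39). In other NK cells their ratios were -0.41 and -1.01 (-1.17 to -0.86 for Klra4). Dapl1-KO-labelled members had 14 Klra8 UMIs in 4 cells and 24 Klra4 UMIs in 3 cells, 19 of the latter in 1 cell. Beside these list counts and those above, 11.3% of all 2440 genes measured were higher and 6.89% lower. The NK receptor Klre1 was at 221.2 and 427.7 CPM (0.95, 0.66 to 1.25) and Irf8 at 287.5 and 535.2 (0.90, 0.64 to 1.16), with 0.61 and 0.79 in other NK cells. Ikzf2, which encodes Helios, was at 64.0 and 137.6 CPM (0.56 to 1.65). Of the genes that set members apart from other NK cells, Rora had a ratio of 0.30 (-0.03 to 0.63) and Ckb one of -0.47 (-1.20 to 0.22), both with intervals that include 0. Tcrg-C4 had one of 1.21 (0.54 to 1.88), and Klra7 stood at 125.7 and 118.2 CPM.

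Heat shock genes were lower in the library labelled Dapl1-KO. Hspa1a, an inducible chaperone, was at 2757 CPM in WT-labelled and 230.0 in Dapl1-KO-labelled members (log2 ratio -3.58, interval -3.88 to -3.30), beside -2.34 in other NK cells. Hspa1b was at 2036 and 139.7, Dnajb1 at 1246 and 217.1, Hsph1 at 237.5 and 49.4, and Hsp90aa1 at 2143 and 548.1. The ratio of Hsp90aa1 was -1.97 in members and -1.37 in other NK cells. Of 16 stress genes 10 were at least 1.5-fold lower and 0 higher in members. These genes are known to respond to tissue handling as well as to stress in the body, and the part of handling was not tested.

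Several large ratios rested on few cells. Cxcl2 had 328 of its 330 UMIs in 1 member of the library labelled Dapl1-KO, and its log2 ratio of 5.25 became -0.38 with the highest cells left out. Penk, the enkephalin precursor, had 60 UMIs in 1 member of the library labelled WT, and Ccl1 owed its ratio of -3.93 to the cell with 755. Cxcl10, an interferon-induced chemokine, was at 4.66 and 73.1 CPM (2.49 to 5.93), beside 24.4 and 35.3 in other NK cells.

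**Figure D5:**
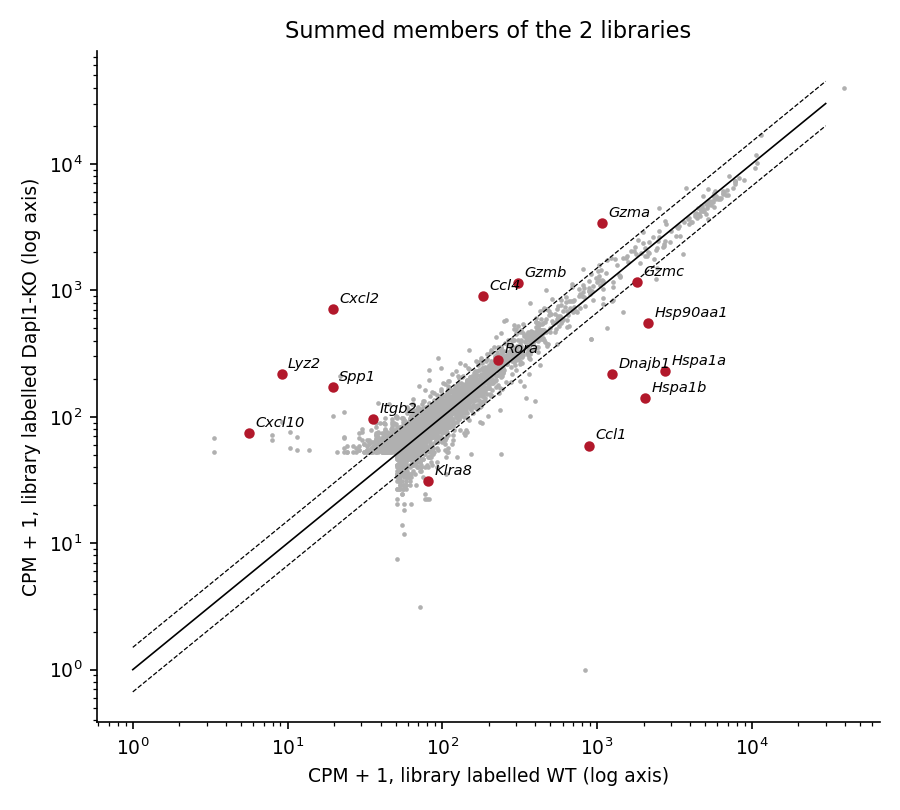
CPM plus 1 of summed member counts in the library labelled Dapl1-KO (vertical log axis) against the library labelled WT (horizontal log axis), 1 point per gene that reached 50 CPM in either; the solid line marks equal levels, the dashed lines a 1.5-fold difference, and red points are named genes. Gzma, Gzmb and Ccl4 lie above the lines and the heat shock genes below; Cxcl2, Lyz2 and Ccl1 rest mainly on 1 cell.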

How the data were processed

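Deposited matrices of UMI counts per gene and barcode were used, 32285 genes in each of the 2 libraries. Cell Ranger 5.0.0 with mm10 (GRCm38) is named in the submitters' processing notes; the authors deposited the counts without normalization, per the file headers and values. Barcodes were joined to genes, cells were filtered and gated as given above, and counts were summed per library and class. edgeR 4.0.16 (R 4.3.3, filterByExpr, TMM scaling) fitted 3 classes with the library as a block; DESeq2 1.42.0 was an alternative. No doublet caller was run. Members and 24 gene lists were chosen with earlier results of these data known. Genes were named by rule: the 12 highest and 12 lowest log2 differences at 50 CPM or more (8 for the subsets, 10 for the genotypes), up to 6 or 4 genes a list, and all residency, conventional NK and Ly49 genes. Tbx21, Klrc1, Fcer1g, Tyrobp, Ccl5, the class II chains, Gzmb and the genes at 0 counts are list members or were added after their values were seen. On simulated counts of 9033 genes, 50.52% of 2-fold and 78.79% of 4-fold changes were called, and 0.1% of unchanged genes. The simulated counts followed the fitted trend of spread and had no library effect and no single cells with extreme counts. These shares are therefore not error rates of the real comparison. Some members of the lists are counted but not reported here by name.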

Additional observations from a re-analysis of the deposited data

How the results depend on the processing

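No paired analysis was possible because each genotype has 1 library, where genotypes were compared; the class comparisons were paired within the library by its block. The share difference was -10.57 points with all barcodes kept. Against other NK cells, genes higher and lower numbered 57 and 29 by DESeq2, 151 and 143 with no low-count filter, 25 and 24 after thinning to 3000 UMIs, and 51 and 44 when Ncr1 and Klrb1c were both required; 107 were lower with all barcodes, and 61 higher without cells of 10 or more other-lineage UMIs, an alternative added after seeing the data, as was leaving out the highest cell. Against Cd3 cells they numbered 40 and 14 by DESeq2 and 21 and 31 after thinning, and 151 were lower with no filter. For Il7r alone against Cd200r1 alone they numbered 0 and 1 by DESeq2, 21 and 13 with no filter, and 0 and 0 with the highest cell left out, and 1 was lower with the stricter T cell exclusion. Between genotypes, genes past 1.5-fold numbered 639 and 505 after thinning, 973 and 613 in cells with a Y-linked UMI and no Xist or Tsix (6 and 36 members), and 752 and 650 at 20 CPM; 102 were lower with all barcodes and 260 as a mean over cells. Thinning and the Y-linked choice leave fewer counts per gene. In the class comparisons thinning also changes the cells, because the gates were applied again to the thinned counts. Directions turned for some genes, most of them carried by single cells. Against other NK cells, log2 differences after thinning were -0.78 for Ccl1, -2.07 for Lyz2, -0.26 for Cxcl2 and -0.37 for Ifitm3, and with the highest cell left out -3.70 for Thbs1 and -0.999 for Cxcl2. Ccl1 was -1.80 against Cd3 cells and Ccl4 0.37 between the subsets with the highest cell left out. Between genotypes Gzmc became 1.48 with other lineages left out, 1.68 after thinning and 6.46 in the Y-linked cells. Cxcl2 became -1.93 with other lineages left out, -1.32 after thinning, -1.99 without cells of 10 or more other-lineage UMIs and -0.38 with the highest cell left out. Ccl1 became 3.32 after thinning, 4.59 with both NK genes required and 0.90 in the Y-linked cells. The cause of the other changes was not tested. Of the genes named against other NK cells, 23 kept direction and call after thinning, 28 lost the call and 4 turned; under DESeq2 44 kept and 12 lost it. Leaving out a library leaves 1, and so a value with no test. Depth limits genes below about 50 CPM. Single cells held most UMIs of some genes well above that level too. Ccl1, at 882.4 CPM in WT-labelled members, had 755 of its 758 UMIs in 1 cell.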
